A study of Mus musculus with 10 samples.

Results

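The genes described here are markers of the hepatic stellate cell, followed in the livers of mice that lack a copy of Tgfbr2. They are the array probes whose platform gene symbol is Lrat, Des, Reln, Dcn, Hgf, Acta2, Pdgfrb, Rgs5, Ngfr or Lum. Of these 10 genes, 9 had a probe, among 16383 genes in all, and no probe was named for Des, whose intermediate filament desmin is the classical stain for these cells. Des is therefore not analysed here. Livers of 6 male mice with a heterozygous knockout of Tgfbr2 (Tgfbr2+/-) were compared with livers of 4 wild-type littermates whose sex is not stated. All 10 mice were on a chow diet, and each liver RNA was hybridised on a 2-colour array against 1 common reference, pooled from the livers of 6 wild-type mice on that diet. The labels do not say whether the 4 controls were in the pool. Strain, age and the construction of the mutant allele are not given in the sources used here, so genotype and any difference in sex or age between the groups cannot be told apart.

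Hepatic stellate cells are the pericytes of the liver sinusoid. In healthy liver they store vitamin A as retinyl esters, wrap the endothelium with contractile processes and secrete growth factors for hepatocytes. After injury they turn into myofibroblasts that express smooth muscle actin and lay down collagen, and TGF-beta, which signals through a complex that needs the type II receptor encoded by Tgfbr2, is a main driver of that change. The comparison thus asks whether the loss of a Tgfbr2 copy goes with a different level of stellate cell transcripts in unchallenged liver.

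All values are log2 ratios of a liver over the pool, and differences are Tgfbr2+/- minus wild type. The data hold 1 column per mouse and 23438 probes. No channel intensities were used here, so whether a probe was well above background is unknown, and a gene's ratio says nothing of its level against another gene. For the same reason the stellate identity of these transcripts in this tissue could not be checked against their abundance. In whole liver, fewer stellate cells and less RNA per stellate cell cannot be told apart. The direction of the ratio is taken as liver over pool but is not stated. The titles name the pool first and the liver second, which does not by itself fix it. It was chosen partly because Tgfbr2 then lies lower in Tgfbr2+/- livers, so the sign of the Tgfbr2 difference is no check of it. Wild-type replicate 1 and Tgfbr2+/- replicate 5 correlated at r = -0.32 over all probes, so the direction of either column is not settled, and the main results and the medians of the gene lists are also given with each of them turned in sign.

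Tgfbr2 itself lay below every wild-type liver in 5 of the 6 Tgfbr2+/- livers. As the mean of its 2 probes it lay at -0.43, -0.50, -0.38, 0.049, -0.49 and -0.18 in Tgfbr2+/- replicates 1 to 6 and at 0.23, 0.37, -0.074 and 0.079 in wild-type replicates 1 to 4. On this mean the library labelled Tgfbr2+/- replicate 4 was inside the wild-type range, which goes against its label, but its 2 probes disagreed. The difference was -0.47 ± 0.12 (SE, 95% interval -0.74 to -0.21, exact permutation p = 0.0143, limma adjusted p = 0.516). It was carried by 1 probe (-0.88 ± 0.26 SE), while the other differed by -0.070 ± 0.086 (SE). On the first probe the library labelled replicate 4 lay at 0.20, beside -0.29 to 0.64 in wild-type livers. On the other it lay at -0.10, below the wild-type range of 0.040 to 0.23, where Tgfbr2+/- livers ran from -0.12 to 0.28. For the mean of the probes, turning the sign of wild-type replicate 1 gave -0.36, and turning that of Tgfbr2+/- replicate 5 gave -0.31. Without the library labelled replicate 4 Tgfbr2 differed by -0.55, and the 9 stellate genes described next differed by 0.14 (Lrat), 0.13 (Hgf), -0.082 (Reln), -0.022 (Pdgfrb), 0.024 (Ngfr), 0.093 (Rgs5), -0.12 (Acta2), 0.094 (Dcn) and -0.0003 (Lum). None of the 9 passed limma's adjusted threshold without it, and Pdgfrb was the 1 gene whose sign differed from that over all 10 livers.

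None of the 9 stellate cell genes passed the test across all genes for a difference between the groups. By limma, 0 of 9 passed an adjusted p of 0.05, as did 0 of 16383 genes (0%). At an unadjusted p under 0.05, 0 of 9 passed, against 5.54% of all genes. For 0 of 9 did the 2 groups of livers lie apart, against 1.08% of all genes, or 0.726% with all Tgfbr2+/- livers higher. Leaving out 1 liver brought 1 of the 9 past the unadjusted threshold in 3 cases, Lrat without wild-type replicate 1, Dcn without wild-type replicate 3 and Rgs5 without Tgfbr2+/- replicate 3. In those fits 3.55%, 4.30% and 7.05% of all genes passed it. Without Tgfbr2+/- replicate 3, 10 of all genes and 0 of the 9 passed the adjusted one. Differences were positive for 6 of the 9 (Lrat, Dcn, Hgf, Rgs5, Ngfr and Pdgfrb) and negative for 3 (Acta2, Reln and Lum), where 52.6% of all genes were positive. They ran from -0.090 for Acta2 to 0.15 for Lrat, with a median of 0.044 beside 0.0044 over all genes. The median size without sign was 0.090, beside 0.051 over all genes, and the median spread within groups was 0.14 (SD), beside 0.11.

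With probes averaged and columns in the direction deposited, the 95% intervals bound the difference of each gene. The farthest lower bound was that of Lum, -0.37, or 1.29-fold lower in Tgfbr2+/- livers, and the farthest upper bound was that of Lrat, 0.33, or 1.26-fold higher. Tgfbr2, whose sign helped to choose the direction of the ratio, had an interval from -0.74 to -0.21. On its probe of larger difference alone, Rgs5 had an upper bound of 0.37, or 1.29-fold higher. The intervals are per gene, are not adjusted for the number of genes and do not cover a column turned in sign.

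**Figure D1:**
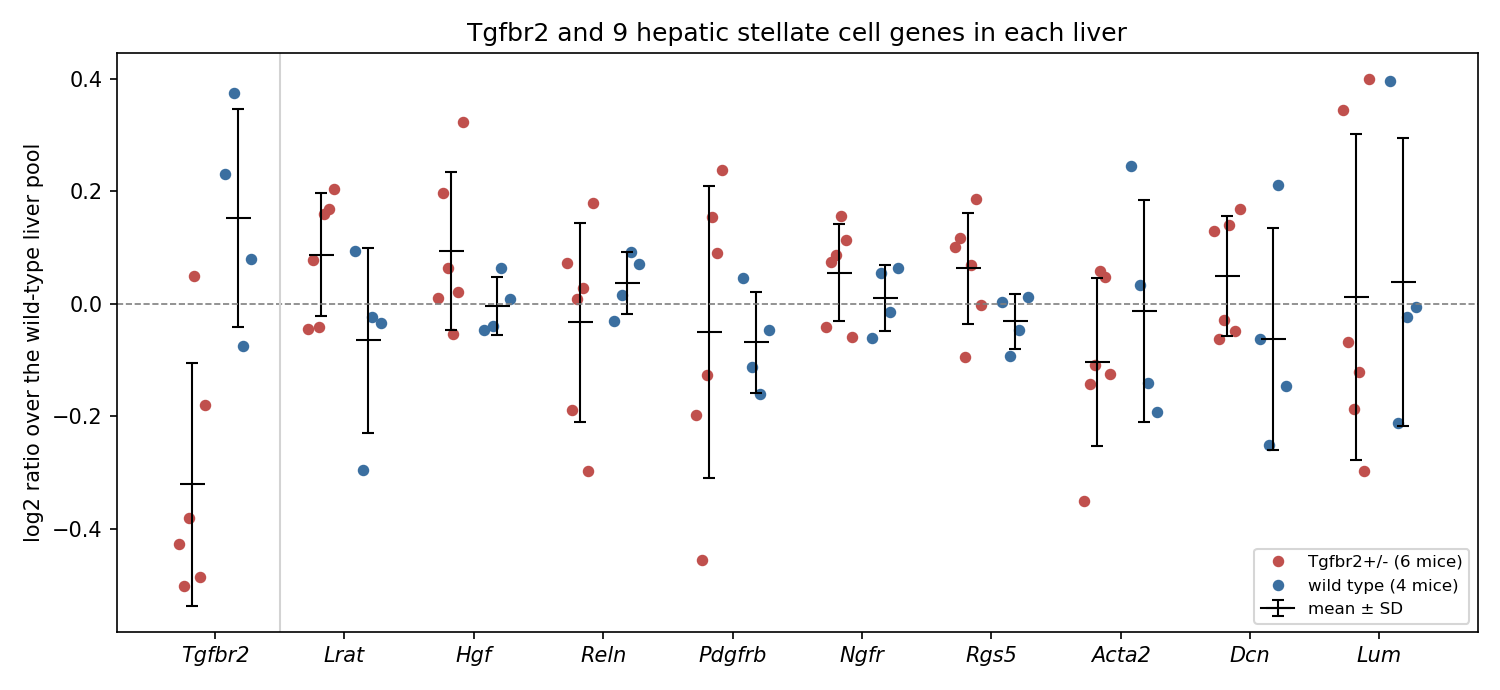
Log2 ratio over the wild-type liver pool (vertical axis) of Tgfbr2 and of 9 stellate cell genes (horizontal axis), 1 point per liver, with Tgfbr2+/- livers in red on the left and wild-type livers in blue on the right of each gene, and the mean ± SD beside them. For each of the 9 stellate genes the points of the 2 groups overlap, and Lum has the widest spread, from -0.30 to 0.40 in Tgfbr2+/- livers.

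**Figure D2:**
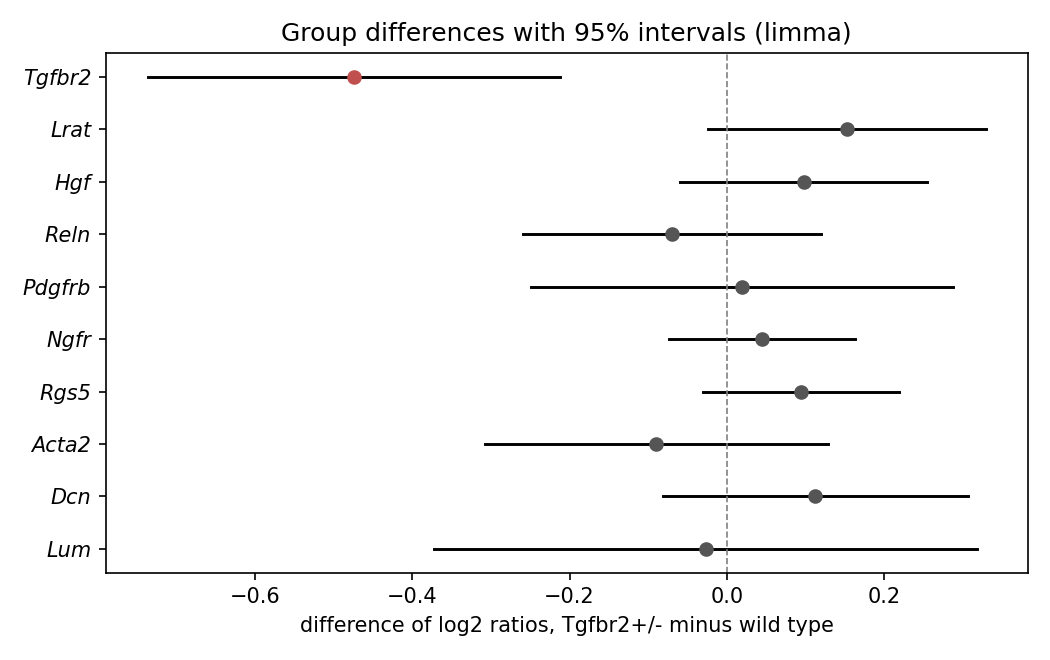
Difference of log2 ratios, Tgfbr2+/- minus wild type (horizontal axis), for Tgfbr2 and each stellate cell gene (rows), with the 95% interval of limma as a line. The interval of Tgfbr2 lies below 0, at -0.74 to -0.21, and each of the 9 stellate gene intervals includes 0.

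Lrat and Acta2 stood at the ends of the range of differences, and the 250 bases before a listed start site of each are printed. The Acta2 window lies mostly inside the gene as listed, whose upstream end is at base 34255585, while the Lrat window lies outside its gene. Lrat encodes lecithin retinol acyltransferase, which makes the retinyl esters of the stellate cell's fat droplets. Acta2 encodes alpha smooth muscle actin, the actin isoform by which activated stellate cells are usually recognised. Serum response factor drives smooth muscle genes through CArG boxes, and capitals mark matches to that box with up to 1 G or C allowed in its A and T core. The sequences are RefSeq's (GRCm38.p6), read 5′ to 3′ on the strand of the gene.
Acta2, chr19:34255374-34255623, minus strand: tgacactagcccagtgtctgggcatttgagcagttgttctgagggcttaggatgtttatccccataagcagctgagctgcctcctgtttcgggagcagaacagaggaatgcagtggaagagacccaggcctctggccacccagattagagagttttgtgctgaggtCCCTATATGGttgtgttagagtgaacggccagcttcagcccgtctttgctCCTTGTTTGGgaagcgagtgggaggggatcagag
Lrat, chr3:82903975-82904224, minus strand: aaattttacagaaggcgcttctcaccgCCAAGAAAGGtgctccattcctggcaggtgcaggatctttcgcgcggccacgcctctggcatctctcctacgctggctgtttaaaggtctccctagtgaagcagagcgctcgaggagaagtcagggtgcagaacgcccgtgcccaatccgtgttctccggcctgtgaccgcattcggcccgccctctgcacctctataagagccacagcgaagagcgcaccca
The Acta2 window held 2 such matches and the Lrat window 1, and 8.59% of 32851 promoter windows of this length held at least 1. Both Acta2 matches lie inside the gene as listed. Without the mismatch the box was in neither window and in 1.47% of all windows. The box reads the same on both strands. CAGAC, a core of the sites bound by the Smad proteins that TGF-beta receptors activate, was searched on both strands and found in the Acta2 window, not in the Lrat window, and in 42.2% of all windows. These matches describe letters, and no binding was measured.

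Lrat had the largest difference among the 9 genes with probes averaged, and it did not pass. On 1 of its 2 probes alone Rgs5 differed by 0.18. The log2 ratios of Lrat in Tgfbr2+/- livers were lowest -0.045, median 0.12 and highest 0.20, against 0.093, -0.30, -0.024 and -0.035 in wild-type replicates 1 to 4. Tgfbr2+/- replicates 5 and 6 and the library labelled replicate 4 lay above every wild-type liver, and the other 3 lay inside the wild-type range. The difference was 0.15 ± 0.080 (SE, 95% interval -0.024 to 0.33, exact permutation p = 0.119, limma adjusted p = 0.917), or 1.11-fold. Wild-type replicate 2 was the lowest of all 10 livers, and without it the difference was 0.076.

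Among the secreted signals, Hgf encodes hepatocyte growth factor, a ligand for the receptor Met on hepatocytes, and Reln encodes reelin, a large extracellular glycoprotein that marks stellate cells in liver. Hgf was lowest -0.053, median 0.042 and highest 0.32 in Tgfbr2+/- livers, against -0.047, -0.040, 0.063 and 0.0086 in wild-type livers. Tgfbr2+/- replicates 6 and 2 were the highest of all livers, and the library labelled replicate 4 was below every wild-type liver. The Hgf difference was 0.097 ± 0.072 (SE, 95% interval -0.060 to 0.25, exact permutation p = 0.252, limma adjusted p = 0.920), and 0.051 without Tgfbr2+/- replicate 6. Reln was lowest -0.30, median 0.019 and highest 0.18 in Tgfbr2+/- livers, against -0.031, 0.016, 0.092 and 0.070 in wild-type livers. The Tgfbr2+/- values spread farther than the wild-type ones (SD 0.18 and 0.055), with replicates 5 and 2 below and replicate 6 above all wild-type livers. The Reln difference was -0.070 ± 0.086 (SE, 95% interval -0.26 to 0.12, exact permutation p = 0.476, limma adjusted p = 0.937), and -0.017 without Tgfbr2+/- replicate 5.

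Of the receptors, Pdgfrb encodes the beta receptor for platelet-derived growth factor, a mitogen of stellate cells, and Ngfr encodes the low-affinity nerve growth factor receptor p75. Pdgfrb lay at -0.20, -0.46, -0.13, 0.15, 0.090 and 0.24 in Tgfbr2+/- replicates 1 to 6 and at 0.046, -0.11, -0.16 and -0.046 in wild-type replicates 1 to 4. The Tgfbr2+/- livers fell on both sides of the wild-type range, replicates 5 and 6 and the library labelled replicate 4 above it and replicates 1 and 2 below it. The difference was 0.019 ± 0.12 (SE, 95% interval -0.25 to 0.29, exact permutation p = 0.900, limma adjusted p = 0.993). Ngfr had the narrowest spread of the 9 genes (SD within groups 0.078). It was lowest -0.059, median 0.081 and highest 0.16 in Tgfbr2+/- livers, against -0.060, 0.054, -0.015 and 0.064 in wild-type livers. For Ngfr 4 of 6 Tgfbr2+/- livers lay above every wild-type liver, by small steps, and the difference was 0.044 ± 0.054 (SE, 95% interval -0.074 to 0.16, exact permutation p = 0.390, limma adjusted p = 0.937).

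The pericyte and contractile genes were Rgs5, an inhibitor of G protein signals that marks pericytes, and Acta2. Rgs5 was lowest -0.095, median 0.085 and highest 0.19 in Tgfbr2+/- livers, against 0.0027, -0.093, -0.047 and 0.012 in wild-type livers, as the mean of 2 probes. Here too 4 of 6 Tgfbr2+/- livers were above every wild-type liver, while replicate 3 was below them all. The difference was 0.094 ± 0.057 (SE, 95% interval -0.030 to 0.22, exact permutation p = 0.119, limma adjusted p = 0.919), and without Tgfbr2+/- replicate 3 it was 0.13. The 2 Rgs5 probes did not move together over the 10 livers (Pearson r = -0.12, Spearman rho = -0.15, given as a description). On 1 probe the difference was 0.18 ± 0.085 (SE), with 5 of 6 Tgfbr2+/- livers above every wild-type liver, and on the other it was 0.0078 ± 0.072 (SE). Acta2, whose window before a listed start site is printed above, lay at -0.35, -0.14, -0.11, 0.059, 0.048 and -0.13 in Tgfbr2+/- replicates 1 to 6 and at 0.25, 0.034, -0.14 and -0.19 in wild-type replicates 1 to 4. Its highest value was that of wild-type replicate 1 and its lowest that of Tgfbr2+/- replicate 1, while 5 of 6 Tgfbr2+/- livers lay inside the wild-type range. The Acta2 difference was -0.090 ± 0.099 (SE, 95% interval -0.31 to 0.13, exact permutation p = 0.467, limma adjusted p = 0.936).

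Dcn and Lum encode decorin and lumican, small leucine-rich proteoglycans that bind collagen fibrils. Their genes are neighbours in the RefSeq gene table, with 0 genes listed between them. Dcn was lowest -0.063, median 0.050 and highest 0.17 in Tgfbr2+/- livers, against -0.062, -0.25, 0.21 and -0.15 in wild-type livers, and all 6 Tgfbr2+/- livers lay inside the wild-type range. The Dcn difference was 0.11 ± 0.088 (SE, 95% interval -0.081 to 0.31, exact permutation p = 0.238, limma adjusted p = 0.924), and 0.20 without wild-type replicate 3. Lum lay at 0.35, -0.068, -0.19, -0.12, -0.30 and 0.40 in Tgfbr2+/- replicates 1 to 6 and at 0.40, -0.21, -0.024 and -0.0053 in wild-type replicates 1 to 4. It was high in Tgfbr2+/- replicates 1 and 6 and in wild-type replicate 1, and at or below -0.0053 in the remaining 7 livers. Its spread within groups (SD 0.28) exceeded that of 94.5% of all genes, and the difference was -0.027 ± 0.16 (SE, 95% interval -0.37 to 0.32, exact permutation p = 0.862, limma adjusted p = 0.990).

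Turning a column moved most of these differences by less than their standard errors. With wild-type replicate 1 turned in sign, Lrat differed by 0.20, Hgf by 0.074, Reln by -0.085, Pdgfrb by 0.042, Ngfr by 0.014, Rgs5 by 0.095 and Dcn by 0.081, while Acta2 and Lum changed sign, to 0.033 and 0.17. With Tgfbr2+/- replicate 5 turned, Lrat differed by 0.096, Hgf by 0.091, Ngfr by 0.0063, Rgs5 by 0.032, Acta2 by -0.11 and Dcn by 0.13, while Reln, Pdgfrb and Lum changed sign, to 0.030, -0.011 and 0.072. None of the 9 passed an adjusted p of 0.05 in either fit.

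Against the pool, too, the 9 genes stayed close to 0. In Tgfbr2+/- livers the group means ran from -0.10 for Acta2 to 0.094 for Hgf, and 0 of 9 passed limma's adjusted threshold, as did 0.0122% of all genes. In wild-type livers they ran from -0.068 for Pdgfrb to 0.039 for Lum, and again 0 of 9 passed, with 0% of all genes. At an unadjusted p under 0.05 there were 0 of 9 in either group, against 18.3% of all genes in Tgfbr2+/- livers and 4.14% in wild-type livers. The smallest was that of Hgf in Tgfbr2+/- livers, at 0.094 ± 0.045 (SE, limma adjusted p = 0.297). This test leaves out the spread of the pool and any dye bias.

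Read liver by liver, the median of the 9 genes lay between -0.063 in Tgfbr2+/- replicate 2 and 0.18 in Tgfbr2+/- replicate 6 among Tgfbr2+/- livers, and between -0.093 in replicate 2 and 0.0027 in replicate 1 among wild-type livers. Tgfbr2+/- replicate 6 held the highest value of any Tgfbr2+/- liver for Lrat, Hgf, Reln, Pdgfrb, Dcn and Lum, with 6 of the 9 genes above the pool. The library labelled Tgfbr2+/- replicate 4, whose Tgfbr2 was inside the wild-type range on the mean of its probes, had 7 of 9 above the pool.

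Over the 10 livers, 21 of 36 pairs of genes had a positive Pearson correlation and 15 a negative one, with a median of 0.16. The farthest from 0 was that of Ngfr and Lum, the genes of narrowest and widest spread, at r = -0.86 (permutation p = 0.00151, adjusted p over 36 pairs = 0.0544) and Spearman's rho = -0.79 (permutation p = 0.00846, adjusted p = 0.305), so it did not pass the adjustment. Lum was high and Ngfr low in the same 3 livers, Tgfbr2+/- replicates 1 and 6 and wild-type replicate 1. Without the 2 livers farthest from the median of Ngfr r was -0.74, on deviations from the group means it was -0.89, turning wild-type replicate 1 in sign gave -0.76, and turning Tgfbr2+/- replicate 5 gave -0.84. Next came Reln with Rgs5, at r = -0.63 and rho = -0.37 (permutation p = 0.0501 and 0.296, adjusted p = 0.785 and 0.888), which rests on Tgfbr2+/- replicates 2 and 5, since r without them was 0.18. Lrat with Rgs5 had the highest positive value, r = 0.59 and rho = 0.39 (permutation p = 0.0704 and 0.264, adjusted p = 0.785 and 0.864), and r = 0.62 without the 2 livers farthest out in Lrat. The neighbours Dcn and Lum had r = 0.40 and rho = 0.31 (permutation p = 0.244 and 0.386, adjusted p = 0.829 and 0.961). Without wild-type replicates 2 and 3, the livers farthest out in Dcn, r was 0.39, but the 3 livers high in Lum stayed in.

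**Figure D3:**
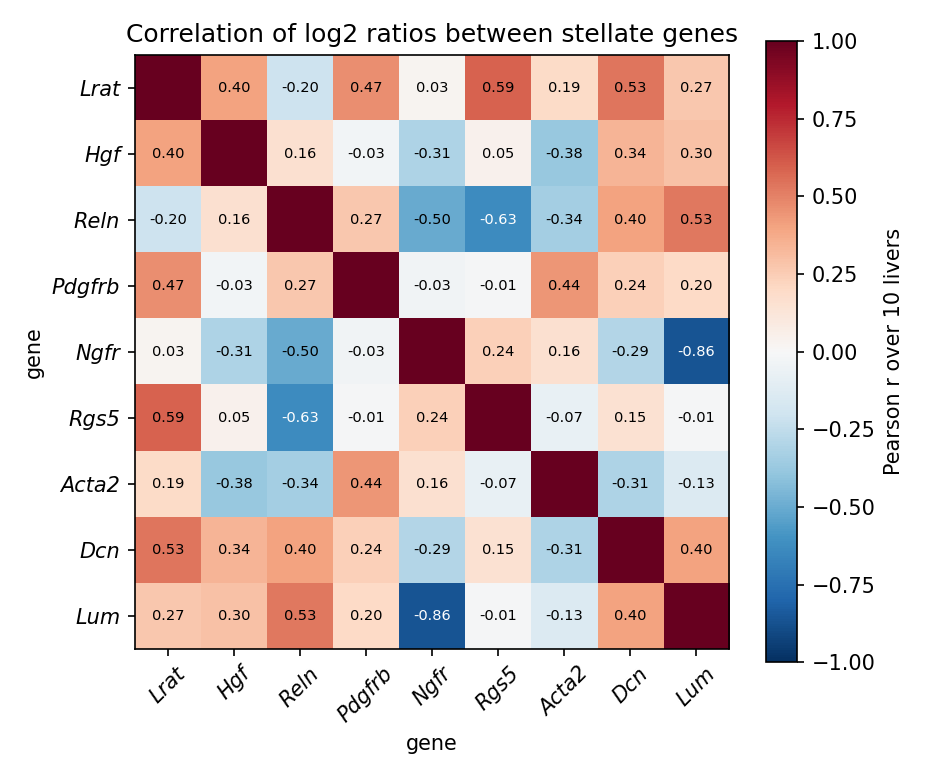
Pearson correlation over the 10 livers between the log2 ratios of each pair of the 9 stellate cell genes, with genes on both axes and colour from blue (-1) to red (1). The cell of Ngfr and Lum, at -0.86, is the farthest from 0, and the highest positive cell is that of Lrat and Rgs5, at 0.59.

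The non-member genes most like the mean of the 9 genes over the 10 livers were Adm2 (Pearson r = 0.93), Sulf1 (r = 0.91), Dapl1 (r = 0.89), Tmem45a (r = 0.88) and Angptl6 (r = 0.88). These were picked as the highest of all genes and share the arrays with the 9, so the values only describe likeness. Angptl6, an angiopoietin-like secreted protein, was also on the list of other stellate cell genes. It was lowest -0.081 and highest 0.092 in Tgfbr2+/- livers, against 0.0037, -0.18, 0.032 and -0.14 in wild-type livers, a difference of 0.063.

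A longer list of other stellate cell genes held none past the adjusted threshold either. Of its 24 measured genes 15 were on the positive side, and the median was 0.016. At an unadjusted p under 0.05, 1 was higher and 1 lower, where 2.97% of all genes were higher and 2.57% lower. The list's median was 0.030 after turning wild-type replicate 1 in sign and 0.026 after turning Tgfbr2+/- replicate 5. The 3 of smallest p were Cxcl12, a chemokine (0.33 ± 0.13 SE), Pdgfra, the alpha receptor for platelet-derived growth factor (-0.22 ± 0.089 SE), and Ecm1, a matrix protein (-0.12 ± 0.058 SE), with limma adjusted p of 0.804, 0.851 and 0.917. Cxcl12 lay between 0.038 and 0.57 in Tgfbr2+/- livers and between -0.29 and 0.23 in wild-type livers, where replicate 4 was the high one. Turning the sign of wild-type replicate 1 gave 0.29 for Cxcl12 and -0.17 for Pdgfra, and turning that of Tgfbr2+/- replicate 5 gave 0.16 and -0.13.

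Genes of the activated, matrix-producing state had mostly negative differences, a majority that was lost without wild-type replicate 1. Of 24 measured genes 19 had negative differences, 2 of them at an unadjusted p under 0.05 (against 2.57% of all genes), 0 passed over all genes, and the median was -0.053. The 3 of smallest p were the collagen cross-linking enzyme Loxl2 (-0.15 ± 0.057 SE), periostin (Postn, -0.32 ± 0.14 SE) and Ccn2, connective tissue growth factor, a known target of TGF-beta (-0.83 ± 0.42 SE), with limma adjusted p of 0.804, 0.896 and 0.917. Ccn2 lay at -0.44, -0.88, -0.094, -0.88, -1.51 and -1.27 in Tgfbr2+/- replicates 1 to 6 and at 0.22, 0.35, 0.89 and -1.52 in wild-type replicates 1 to 4, so that wild-type replicate 4 was the lowest of all. Its difference was -1.33 when wild-type replicate 4 was left out and -0.53 when wild-type replicate 3 was. After turning Tgfbr2+/- replicate 5 in sign, Ccn2 differed by -0.33 and Postn by -0.17, and after turning wild-type replicate 1, Loxl2 differed by -0.058. Col1a1, a chain of type I collagen named after its values were seen, had the largest difference of the list, -0.91 ± 0.60 (SE, limma adjusted p = 0.919). It was at 1.95 in wild-type replicate 1 and between -1.51 and -0.81 in the other wild-type livers, beside -2.34 to -0.58 in Tgfbr2+/- livers. Without wild-type replicate 1 the list's median was 0.0001 with 12 of 24 lower and 0 at an unadjusted p under 0.05, while Loxl2, Postn and Ccn2 stayed negative (-0.13, -0.27 and -0.75). Turning that liver in sign gave a median of 0.039. With Tgfbr2+/- replicate 5 turned it was -0.046.

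Some markers of the mesothelium, the cell layer on the liver surface, were high in that same wild-type liver. The mean of the 8 measured mesothelial genes was 0.42 in wild-type replicate 1, between -0.28 and -0.19 in the other wild-type livers, and between -0.27 and -0.034 in Tgfbr2+/- livers. Wild-type replicate 1 was the highest of the 10 livers for 4 of these 8 genes and for 13 of the 24 matrix genes, where 8.75% of all genes were highest there. Msln, which encodes mesothelin, was at 1.08 in it and at -0.84 to -0.096 in the other 9 livers, and the transcription factor Wt1 was at 0.99 and -1.06 to -0.16. Upk1b and Krt14 were the other 2 that were highest there. Gpm6a and Bnc1 lay inside the range of the other livers, and Podxl (-0.062, beside -0.044 to 0.10) and Lrrn4 (-0.0028, beside -0.0010 to 0.14) were lowest there. Among the 9 stellate genes, Acta2 was highest in this liver. Without wild-type replicate 1 the difference of Acta2 was -0.0038, that of Lum 0.092 and that of Lrat 0.21. Wt1 differed by -0.19 ± 0.33 (SE) between the groups, Krt14 by -0.086 ± 0.094 (SE) and Podxl by 0.046 ± 0.045 (SE), none of which passed, and Wt1 and Krt14 changed sign without that liver (0.24 and 0.025) and with its sign turned (0.30 and 0.12). The median difference of the mesothelial list was -0.054, and 0.031 without that liver, 0.084 with it turned and -0.061 with Tgfbr2+/- replicate 5 turned. The part of mesothelial tissue in the stellate and matrix values was not tested beyond this.

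Contractile and smooth muscle genes, which share Acta2's programme, had 9 positive differences among 19, a median of -0.0037 and 0 past an unadjusted p of 0.05. The median was 0.022 after turning wild-type replicate 1 and -0.027 after turning Tgfbr2+/- replicate 5. Those of smallest p were the intermediate filament gene Synm (-0.14 ± 0.093 SE), calponin (Cnn1, -0.11 ± 0.090 SE) and smooth muscle myosin (Myh11, -0.13 ± 0.10 SE). Cnn1 was -0.014 without wild-type replicate 1 and 0.038 with it turned. Genes of portal fibroblasts, the other collagen-producing cells of liver, had 9 of 14 positive and a median of 0.016. Turning wild-type replicate 1 left 11 positive and a median of 0.021, while turning Tgfbr2+/- replicate 5 left 6 positive and changed the sign of the median, to -0.0034. Of these, Cd248, which encodes the membrane glycoprotein endosialin, lay at 0.46, 0.98, 0.16, 0.48, 0.72 and -0.030 in Tgfbr2+/- replicates 1 to 6 and between -0.089 and 0.056 in wild-type livers. Thus 5 of 6 Tgfbr2+/- livers were above every wild-type liver and replicate 6 was not, a difference of 0.49 ± 0.16 (SE, exact permutation p = 0.0286, limma adjusted p = 0.740). For Cd248, turning the sign of wild-type replicate 1 gave 0.44 and turning that of Tgfbr2+/- replicate 5 gave 0.25. Gas6 (0.21 ± 0.12 SE) and Gli1 (-0.16 ± 0.087 SE) followed.

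The partners of the single genes were read the same way. Around Lrat, 25 genes of retinoid handling had 13 positive differences and a median of 0.0011. The lipase gene Pnpla2 differed by -0.35 ± 0.12 (SE, exact permutation p = 0.00952, limma adjusted p = 0.760), and by -0.20 without wild-type replicate 2, which was at 0.57. It was followed by the lysosomal lipase Lipa (0.14 ± 0.065 SE) and the retinoid receptor Rxrg (-0.24 ± 0.14 SE). Around Hgf, 9 of 12 genes of its receptor, activating proteases and their inhibitors were positive, with Spint2 (0.13 ± 0.072 SE), Klkb1 (0.084 ± 0.086 SE) and Plat (0.057 ± 0.067 SE) first by p. Turning wild-type replicate 1 left 7 of them positive (median 0.012, beside 0.040 as measured), and turning Tgfbr2+/- replicate 5 left 5 (median -0.0059). For Pdgfrb, 3 of 6 related genes were positive, and Pdgfb (-0.095 ± 0.054 SE) and Pdgfd (-0.076 ± 0.058 SE), ligands that act on this receptor, followed Pdgfra. For Reln, 3 of 6 were positive, with Pafah1b1 (-0.28 ± 0.13 SE), the reelin receptor Vldlr (-0.18 ± 0.13 SE) and Dab2 (0.046 ± 0.048 SE) first. For Ngfr, 5 of 9 were positive, with Maged1 (0.14 ± 0.075 SE), Sort1 (0.12 ± 0.092 SE) and Traf6 (-0.057 ± 0.045 SE) first. For Dcn and Lum, 7 of 12 other small leucine-rich proteoglycans were positive, and biglycan (Bgn, 0.14 ± 0.075 SE), opticin (Optc, 0.089 ± 0.057 SE) and Prelp (0.057 ± 0.036 SE) came first. None of these genes passed an adjusted p of 0.05, and 2 of their 70, Pnpla2 and Pdgfra, were lower at an unadjusted p under 0.05, where 2.57% of all genes were. Many of these values depend on the columns of doubtful direction. Turning wild-type replicate 1 changed the sign of 1 of the 18 named genes (Traf6, to 0.027) and moved 8 others by over 1.5 times, Spint2 to 0.0048 among them. Turning Tgfbr2+/- replicate 5 changed the sign of 0 and moved 12 that far, Vldlr to -0.048 and Optc to 0.0078 among them. Medians after turning wild-type replicate 1 and after turning Tgfbr2+/- replicate 5 were 0.0030 and 0.0090 for retinoid handling, -0.041 and -0.017 for the genes around Pdgfrb, 0.0092 and -0.024 for those around Reln, 0.021 and 0.015 for those around Ngfr and 0.027 and 0.0061 for the proteoglycans.

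Markers of other liver cells were set beside these values. Their lists were chosen with earlier results of these data known, so the counts and means describe and do not test. Of 11 markers of Kupffer cells, the resident macrophages, 9 were positive and 8 were higher at an unadjusted p under 0.05, against 2.97% of all genes, with a median difference of 0.39. Turning wild-type replicate 1 in sign gave a median of 0.25, and turning Tgfbr2+/- replicate 5 gave 0.29. Their mean lay between -0.032 and 0.28 in Tgfbr2+/- livers and between -0.26 and -0.094 in wild-type livers, and Cd5l (0.67 ± 0.097 SE), Vsig4 (0.48 ± 0.075 SE) and Folr2 (0.61 ± 0.095 SE) came first. The mean of the 9 stellate genes lay between -0.050 and 0.15 in Tgfbr2+/- livers and between -0.10 and 0.065 in wild-type livers. Sinusoidal endothelial genes had 9 of 16 positive and a median of 0.019, led by the lectin Clec4g (0.27 ± 0.077 SE), the Fc receptor Fcgr2b (0.36 ± 0.11 SE) and the scavenger receptor Stab2 (-0.084 ± 0.039 SE). Medians were -0.012 over 12 hepatocyte genes (first Arg1, -0.24 ± 0.10 SE, then G6pc and Ass1), 0.0038 over 11 bile duct genes (first Cldn7, 0.13 ± 0.064 SE, then Tspan8 and Muc1) and 0.011 over 13 lymphocyte genes (first Cd3e, 0.12 ± 0.065 SE, then Cd4 and Cd3d). None of these genes passed over all genes. After turning wild-type replicate 1 in sign the medians were 0.0030 (endothelial), -0.0087 (hepatocyte), 0.060 (bile duct) and 0.020 (lymphocyte). After turning Tgfbr2+/- replicate 5 they were 0.012, 0.021, -0.023 and 0.024, so that those of the hepatocyte and bile duct genes changed sign. The difference between the Kupffer cell and the stellate values was not tested.

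**Figure D4:**
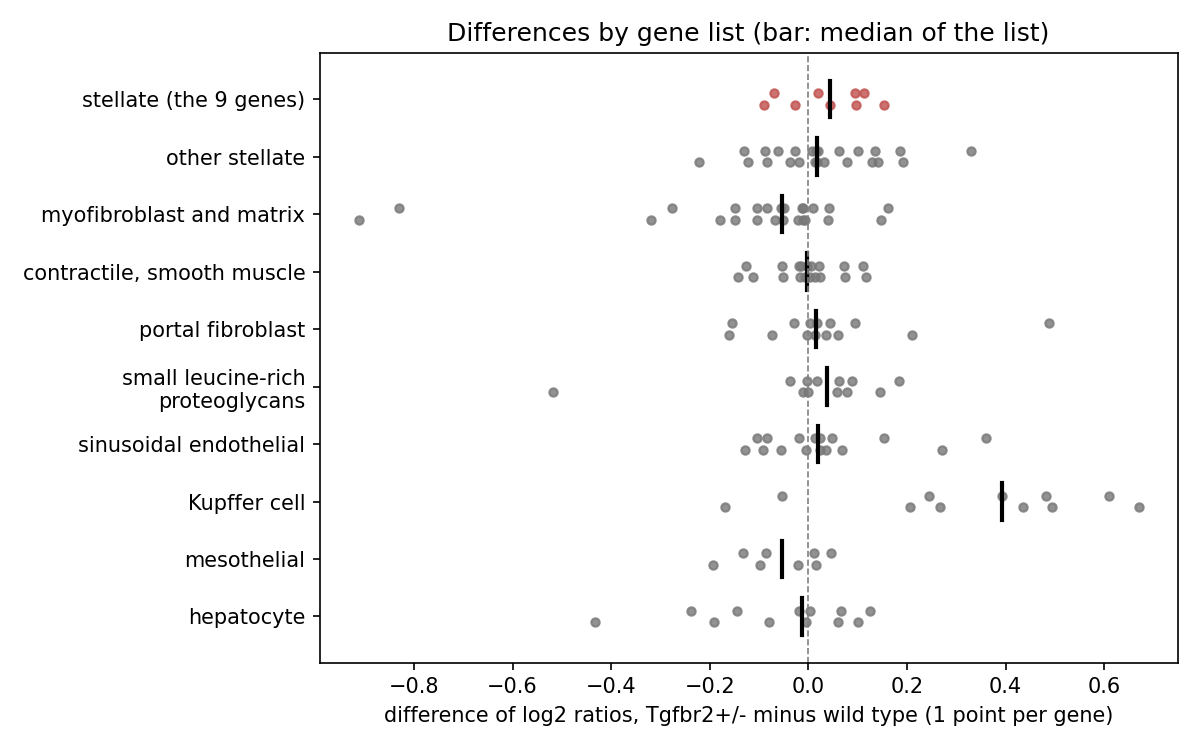
Difference of log2 ratios, Tgfbr2+/- minus wild type (horizontal axis), for the genes of 10 lists (rows), 1 point per gene, with the 9 stellate cell genes in red and a bar at the median of each list. The stellate genes lie between -0.090 and 0.15, and the Kupffer cell list has its median at 0.39. The lists were chosen with earlier results of these data known.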

How the data were processed

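Liver RNA of 10 mice was profiled on 2-colour arrays against a wild-type liver pool, with aminoallyl-labelled amplified RNA per the labels' protocols. The values deposited by the authors are log10 ratios, 1 column per mouse. The log10 scale was inferred from 8 values at exactly 2 or -2. Column medians were 0.0013 to 0.0047, so columns are centred near 0, while scale and direction stay unknown from the labels. Background correction, normalization and the joining of dye swaps are not given in the sources used here. Values were multiplied by 3.32 to log2 and averaged per gene symbol (17726 probes with 1 symbol, 50 with several, 5662 unnamed here, 0 symbols changed by Entrez identifier). limma 3.58.1 in R 4.3.3 compared groups (lmFit, eBayes, two-sided, Benjamini-Hochberg over 16383 genes). It was also run on simulated data with planted changes of 1 and 2 log2 units. Those are larger than the stellate differences, so that run says nothing of changes this small. Single genes had an exact two-sided permutation test over 210 splits. Correlations used 100000 permutations (SciPy 1.17.1). The limma p-values set each difference against the spread between livers of the same group, in which animal and array variation cannot be separated. Permutation p-values come from reshuffling the 10 livers, and 10 arrays limit the precision. The members and lists were chosen with earlier results of these data known. Named were Tgfbr2, the 9 genes, the 3 of smallest p in each list and the 5 genes most like the members' mean. Dye swaps were part of the design, per the series text. Promoter sequences are RefSeq's. Alternatives tried were other probe summaries, scalings, weights, turned columns, the replicate number as a block and left-out livers, and those run on the other gene lists were added after seeing the data.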

Additional observations from a re-analysis of the deposited data

Results flagged for a closer look

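Dixon's test for 1 value far from the rest of its group was applied to 160 sets of values, and 11 were marked, where chance marks about 1 in 20. None of these was a value of the 9 stellate genes, their median or Tgfbr2. Explanations were not weighed.

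Among list means, that of the matrix genes was low in Tgfbr2+/- replicate 2 (-0.32 beside -0.13 to -0.070 in the other Tgfbr2+/- livers). The mean of the Hgf-related genes was high in Tgfbr2+/- replicate 5 (0.081 beside -0.023 to 0.010). The mesothelial mean was high in wild-type replicate 1 (0.42 beside -0.28 to -0.19 in the other wild-type livers), and the sinusoidal endothelial mean was low in wild-type replicate 2 (-0.040 beside -0.0051 to -0.0005).

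Among single genes, wild-type replicate 4 was low for Loxl2 (0.025 beside 0.16 to 0.18) and high for Stab2 (0.099 beside 0.050 to 0.054). Wild-type replicate 1 was low for Maged1 (-0.22 beside 0.013 to 0.021) and Cldn7 (-0.14 beside 0.036 to 0.054). Tgfbr2+/- replicate 6 was low for Pafah1b1 (-0.75 beside -0.17 to 0.012) and high for Tspan8 (0.96 beside -0.26 to 0.082) and Dapl1 (0.13 beside -0.037 to 0.0020).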

How the results depend on the processing

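Of 190 recomputed differences of the 9 genes, 175 kept their sign and 15 changed it, for 4 genes, and none passed an adjusted p of 0.05 (smallest 0.654). Part of the 175 was fixed in advance. A gene with 1 probe has the same difference under every probe summary, and a change of limma's variance prior alters no difference. Pdgfrb changed sign with columns scaled to equal spread (-0.0081), with array weights (-0.040), with Tgfbr2+/- replicate 5 turned (-0.011) and with the replicate block (-0.088), and over left-out livers it ranged from -0.039 to 0.10. With the sign of Tgfbr2+/- replicate 5 turned, Reln was 0.030 and Lum 0.072. With wild-type replicate 1 turned, Acta2 was 0.033 and Lum 0.17. Lum ranged from -0.11 to 0.092 over left-out livers. The causes were not tested. The correlation of Reln with Rgs5 changed sign, to 0.18, without the 2 livers farthest out in Reln. The median of the 9 ranged from 0.024 to 0.083 over left-out livers and the number positive from 5 to 7. At an unadjusted p under 0.05 0 of the 9 passed in the fit reported, and 1 did without wild-type replicate 1 (Lrat), wild-type replicate 3 (Dcn) or Tgfbr2+/- replicate 3 (Rgs5), and 1 (Lrat) with wild-type replicate 1 turned. Over all genes 0 passed the adjusted threshold except without Tgfbr2+/- replicate 3, where 10 did. Whether a shared replicate number marks a pair or a batch is not stated in the labels. Deviations from the group means correlated at 0.087, 0.092, 0.30 and 0.0072 between same-numbered livers 1 to 4. Tgfbr2+/- replicates 1, 2 and 3 each correlated best with the wild-type liver of their own number, and replicate 4 did not. With the replicate block, over the 4 shared numbers, 0 genes passed the adjusted threshold and the median of the 9 was 0.058. At an unadjusted p under 0.05 that fit had 0 of the 9 and 9.27% of all genes. Signal over background is unknown here.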
